A study of Callithrix jacchus with 4 samples.

Results

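Cadherins and protocadherins are calcium-dependent adhesion proteins that hold neighbouring cells together and sort neurons and their processes by type. They were taken from a gene count table by symbol, as every CDH symbol followed by a digit and every PCDH symbol, with 1 protocadherin row left out. This gave 44 genes of 35205. They were 18 classical cadherins, 5 other CDH genes, 11 non-clustered protocadherins and 10 clustered protocadherins. Of the 44, 38 passed the filter on low counts and were tested.

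The libraries were made from brain tissue of common marmosets at postnatal day 5. The study's design describes forebrain samples that included cerebral cortex, striatum and hippocampus, while the label of each library says only brain. One group was wild-type (2 libraries) and the other carried an FMR1 mutation made with CRISPR/Cas9 (2 libraries). The mutation of each animal, its sex, litter and any mosaicism are not in the labels. FMR1 encodes the RNA-binding protein lost in fragile X syndrome, and the comparison asked how transcript levels differ between the groups. Nothing in the labels says that the libraries of a group came from separate animals, so the p-values cover only the spread among the 4 samples, which may be technical.

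Classical cadherins bind the same or a similar cadherin on the next cell and are tied inside the cell, through catenins, to actin. Type I members such as N-cadherin adhere strongly, and the many type II members are expressed in overlapping patterns that differ between brain nuclei, cortical layers and circuits. Non-clustered protocadherins of the delta-1 and delta-2 subfamilies adhere more weakly and signal through short conserved stretches of their tails. Clustered protocadherins are encoded in tandem alpha, beta and gamma arrays, from which each neuron uses a few promoters, and they let a neuron tell its own branches from those of others.

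Total counts per library ran from 12331639 to 13455702, and levels are given as CPM, a gene's counts relative to library size after scaling by TMM (trimmed mean of M-values). CPM is not divided by transcript length, so it was compared between libraries and not between genes. Fold changes are mutant over wild-type on the log2 scale, and an adjusted p is the quasi-likelihood p of edgeR after Benjamini-Hochberg correction over the 16956 genes tested. FMR1 had 1144 and 966 counts in the wild-type and 1062 and 1603 in the mutant libraries, and its log2 fold change of 0.28 did not pass (adjusted p = 0.445). A small mutation need not change RNA level, so this does not check the genotype labels. Wild-type replicate 1 stood apart in the thalamic transcription factor TCF7L2, at 96.0 CPM against 8.98 to 11.3 CPM in the other 3 libraries. Mutant replicate 1 stood apart in TTR, the main choroid plexus transcript, at 94.97 CPM against 0.603 to 7.25 CPM. Other choroid plexus and ependymal markers did not all follow TTR. CLIC6, KCNJ13, AQP1 and FOXJ1 were also highest in mutant replicate 1, by less, while FOLR1 and OTX2 were highest in wild-type replicate 1. In such bulk samples, fewer cells of a type and less RNA per cell cannot be told apart.

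CDH22 was the member that changed, and it was lower in both mutant libraries. Of the 38 members tested, 1 fell (2.63%) and 0 rose, where 2.23% of all genes tested were called. By direction, 1.57% of all genes were called lower and 0.661% higher. The share of members called was thus near that of all genes. At an unadjusted p under 0.05 there were 3 members, all lower (7.89%), against 13.4% of all genes, of which 7.75% were lower and 5.64% higher. DESeq2 and limma-voom each called CDH22 and no other member. Groups did not overlap in CPM for 15 members (39.5%), 9 lower and 6 higher in the mutant libraries, against 43.1% of all genes tested, 21.8% lower and 21.4% higher.

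CDH22, also known as pituitary and brain cadherin, is a type II cadherin. Wild-type replicates 1 and 2 held it at 39.4 and 59.8 CPM, and mutant replicates 1 and 2 at 24.0 and 27.3 CPM. The wild-type libraries differed from each other more than the mutant libraries did, but the groups did not overlap. The wild-type mean was 49.6 ± 14.4 CPM and the mutant mean 25.7 ± 2.30 CPM (SD, n = 2 each). The log2 fold change was -0.95 (SE 0.17, 95% interval -1.30 to -0.59, adjusted p = 0.00241), so that the mutant level was 0.519 times the wild-type level. By unadjusted p it ranked 90 among all genes tested.

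The size of the CDH22 difference depended on which wild-type library was present. The log2 fold change was -1.22 without wild-type replicate 1 (adjusted p = 1.09e-08) and -0.61 without wild-type replicate 2 (adjusted p = 0.0398). With mutant replicate 1 left out it was -0.86 and with mutant replicate 2 left out -1.04, and neither passed (adjusted p = 0.131 and 0.0731). CDH22 was lower in the mutant libraries in all 4 of these fits. That sign follows from groups that do not overlap and adds nothing to it.

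**Figure D1:**
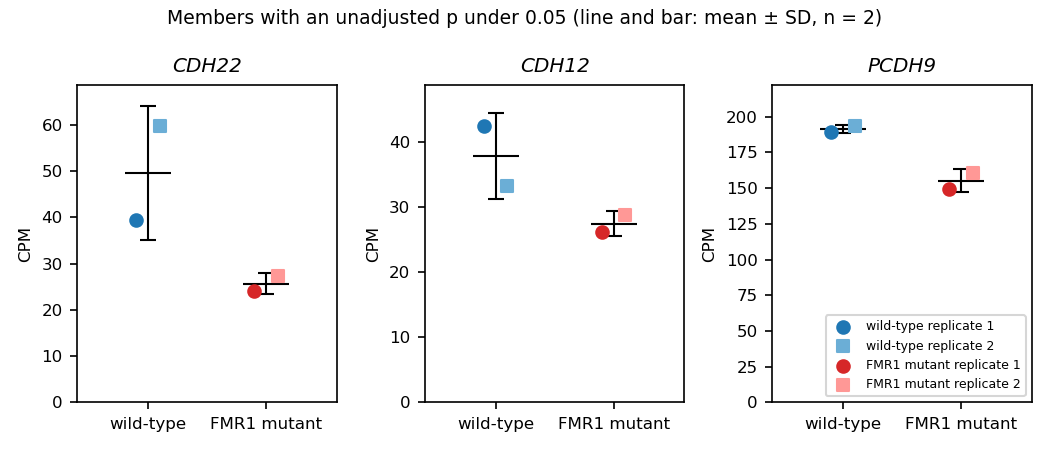
CPM (vertical axes, from 0) of the 3 members with an unadjusted p under 0.05 in the 2 wild-type and 2 FMR1 mutant libraries, with points for libraries and lines with bars for mean ± SD (n = 2). CDH22 sits at 39.4 and 59.8 CPM in wild-type and at 24.0 and 27.3 CPM in mutant libraries, and the groups also do not overlap for CDH12 and PCDH9.

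Type II cadherins were mostly lower, but some of the differences were very small. Of 13 such genes, 12 were tested, 10 with a negative and 2 with a positive log2 fold change. The median was -0.16, beside -0.0040 for all genes tested, of which 50.7% were negative. Among the 10, CDH7, CDH11, CDH20 and CDH8 were at only -0.09, -0.07, -0.06 and -0.0034. The groups did not overlap for 41.7% of the 12, near the 43.1% of all genes tested. CDH22 alone passed. After it came CDH12, at 42.5 and 33.2 CPM in wild-type and 26.1 and 28.8 CPM in mutant replicates 1 and 2. Its groups did not overlap, but the difference did not pass (log2 fold change -0.46, SE 0.16, adjusted p = 0.123). Without wild-type replicate 2 it passed (-0.63, adjusted p = 0.0292), and without wild-type replicate 1 it was -0.27 (adjusted p = 0.656).

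CDH12 and CDH6, like CDH8, CDH11, CDH13, PCDH11X and some other members, had their highest CPM in wild-type replicate 1, the library with the most TCF7L2. Other members peaked elsewhere, such as CDH9 and CDH18 in wild-type replicate 2, CDH24 in mutant replicate 1 and CDH2 in mutant replicate 2. The share of all genes that peaked in wild-type replicate 1 was not taken. The 8 thalamic markers summed to 453 CPM in that library and to 249 CPM in wild-type replicate 2, with 283 and 258 CPM in the mutant libraries. None of the 8 was at 0 in any library. CDH6, a cadherin with a sharply regional pattern in the developing brain, was at 74.9 CPM there and at 57.9, 55.0 and 58.2 CPM in the same order of the others. Its log2 fold change was -0.23 (adjusted p = 0.489) and shrank to -0.03 without wild-type replicate 1. For CDH22, wild-type replicate 1 was the lower of the wild-type pair, and the difference was larger without it. The part of thalamic RNA in the CDH12, CDH6 and CDH22 values was not tested.

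The remaining type II cadherins did not pass. CDH18 was at 25.6 and 30.2 CPM in wild-type and 22.7 and 22.6 CPM in mutant libraries (log2 fold change -0.30, adjusted p = 0.435). CDH9, which guides synapse formation of particular neurons, was at 32.5 and 35.0 against 29.9 and 27.4 CPM (-0.24, adjusted p = 0.538). Neither pair of groups overlapped, and neither difference passed. According to the gene order of RefSeq's assembly calJac240_pri, CDH6, CDH9, CDH10, CDH12 and CDH18 follow each other with 0 protein-coding genes between neighbours. Of these 5 neighbours, 4 were negative and CDH10 was positive (68.4 and 75.3 against 78.8 and 72.9 CPM, 0.08, 95% interval -0.18 to 0.34).

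CDH8 and CDH11, another pair of adjacent genes, showed no difference between groups beyond that within them. CDH8 was at 89.6 and 71.2 CPM in wild-type and 78.5 and 82.1 CPM in mutant libraries, and its log2 fold change was -0.0034 (95% interval -0.27 to 0.26), with a sign that turned under RLE and upper quartile scaling (0.000031 and 0.0012). CDH11, a cadherin of mesenchymal cells that neurons also make, was at 94.97 and 78.6 against 72.0 and 93.4 CPM (-0.07, 95% interval -0.35 to 0.21). Both mutant libraries lay between the wild-type libraries for CDH8, and 1 of them did for CDH11. CDH7 (-0.09) and CDH20 (-0.06) were also close to 0, with intervals of -0.44 to 0.25 and -0.38 to 0.25.

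CDH5, or VE-cadherin, the adhesion molecule of endothelial junctions, was at 12.5 and 17.0 CPM in wild-type and 12.4 and 12.5 CPM in mutant libraries. Only wild-type replicate 2 was high, and the log2 fold change of -0.24 (adjusted p = 0.674) became -0.0016 without it. The 8 endothelial and pericyte markers summed to 269 and 288 CPM in wild-type and 246 and 261 CPM in mutant libraries, and 2 of the 8, CLDN5 and VWF, were higher in wild-type replicate 2 than in wild-type replicate 1. CDH24 was the type II member with the largest positive value, at 14.9 and 15.7 against 17.9 and 17.0 CPM (0.19, adjusted p = 0.722). CDH19, known from glia of peripheral nerves, had 5 and 3 counts in the wild-type and 2 and 2 in the mutant libraries and was not tested.

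**Figure D2:**
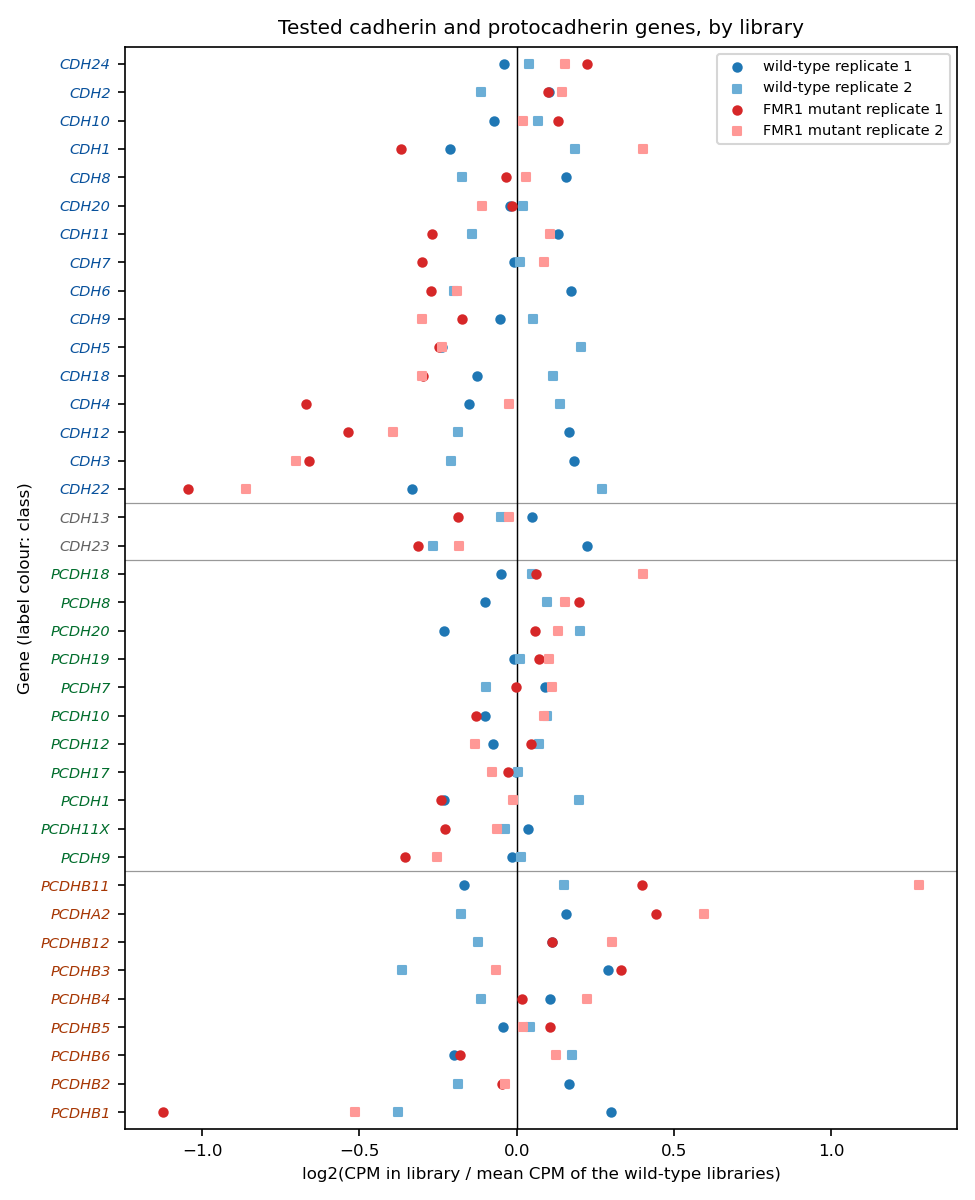
Level of each of the 38 tested members in each library, as log2 of CPM over the mean CPM of the wild-type libraries (horizontal axis), with genes grouped by class on the vertical axis. CDH22 has both mutant libraries far to the left, most delta protocadherins lie close to 0, and the low-count clustered protocadherins are spread widest.

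Type I cadherins were mixed. CDH2, or N-cadherin, the main cadherin of neural progenitors and synapses, was at 188 and 162 CPM in wild-type and 187 and 193 CPM in mutant libraries. Its groups overlapped, and the log2 fold change of 0.12 had a 95% interval of -0.12 to 0.36. CDH4, or R-cadherin, was at 20.7 and 25.2 against 14.4 and 22.6 CPM (-0.31, adjusted p = 0.527), and mutant replicate 1 carried the difference, since the value was -0.02 without it. CDH3, or P-cadherin, was low in both groups, at 4.38 and 3.34 against 2.44 and 2.37 CPM, and did not pass (-0.68, SE 0.36, adjusted p = 0.422). CDH1, or E-cadherin of epithelia, was counted 9, 11, 8 and 14 times, and its interval of -1.19 to 1.34 holds changes of either sign. CDH15, or M-cadherin of muscle, was counted 3, 8, 9 and 0 times and was not tested.

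Among the remaining CDH genes, CDH13, which lacks a cytoplasmic tail and is held in the membrane by a lipid anchor, was well counted. It was at 223 and 208 CPM in wild-type and 190 and 212 CPM in mutant libraries (-0.10, 95% interval -0.34 to 0.13), with overlapping groups. CDH23, known from the tip links of hair cells, was counted 47, 31, 32 and 36 times (-0.25, adjusted p = 0.848). CDH26 was counted 1 and 2 times in wild-type and 6 and 10 times in mutant libraries, below the filter. Its summed ratio of 5.13 had a 95% counting interval of 1.47 to 27.5, which covers counting error only and not the spread between libraries. CDH17, an intestinal cadherin, was counted 3 to 7 times, and CDH16, a kidney cadherin, 0 times in each library.

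Non-clustered protocadherins were mostly well counted, with PCDH12 (40 to 44 counts in a library) and PCDH18 (130 to 182) the lowest. Their median absolute log2 fold change was 0.10, against 0.17 over all genes tested. All 11 were tested, none passed, and the median log2 fold change was -0.02. Values ran from -0.30 for PCDH9 to 0.24 for PCDH18. At an unadjusted p under 0.05 there was 1, PCDH9. DESeq2 and limma-voom called none of them.

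In the delta-1 subfamily, PCDH9 was at 190 and 194 CPM in wild-type and 150 and 161 CPM in mutant libraries. Its groups were separate and each pair was close, but the difference did not pass (-0.30, SE 0.12, 95% interval -0.54 to -0.07, adjusted p = 0.196). It lay between -0.25 and -0.35 with any 1 library left out. PCDH9 is made by neurons and is also abundant in oligodendrocytes. The 12 myelin and oligodendrocyte markers summed to 3681 and 3603 CPM in wild-type and 1404 and 1352 CPM in mutant libraries, all 12 fell, and none was at 0 in a library. The part of oligodendrocyte RNA in the PCDH9 value was not tested.

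The other delta-1 members were closer to 0. PCDH11X, an X-linked protocadherin, was at 247 and 234 against 205 and 230 CPM (-0.14, 95% interval -0.38 to 0.09). PCDH1 was at 185 and 249 against 184 and 216 CPM (-0.12), with wild-type replicate 2 as the high library and a positive value of 0.11 without it. PCDH7 was at 220 and 193 against 206 and 223 CPM (0.06, 95% interval -0.18 to 0.29). For PCDH1 and PCDH7 the groups overlapped.

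The delta-2 subfamily, whose members bind actin regulators through their tails, had log2 fold changes from -0.05 to 0.24, and none passed. PCDH19, the X-linked gene of an epilepsy that affects mainly heterozygous females, was at 109 and 110 CPM in wild-type and 115 and 118 CPM in mutant libraries (0.09, 95% interval -0.15 to 0.33). PCDH17 was at 108 and 108 against 106 and 102 CPM (-0.05, 95% interval -0.30 to 0.19). The libraries of each group nearly coincided for both genes, and the intervals hold no change as large as 0.35 in either direction.

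PCDH8, which is induced by synaptic activity and promotes removal of N-cadherin from synapses, was at 76.6 and 87.8 against 94.3 and 91.3 CPM (0.18, adjusted p = 0.598). PCDH10 was at 166 and 190 against 163 and 189 CPM (-0.02, 95% interval -0.26 to 0.23). PCDH18 was at 9.88 and 10.6 against 10.7 and 13.5 CPM (0.24, adjusted p = 0.693). Thus 4 of the 5 delta-2 genes had groups that did not overlap, 3 higher and 1 lower, at sizes that did not pass, where 43.1% of all genes tested did not overlap. Outside the delta subfamilies, PCDH20 was at 35.0 and 47.2 against 42.8 and 45.0 CPM (0.10), and PCDH12, an endothelial protocadherin, at 3.09 and 3.42 against 3.36 and 2.97 CPM (-0.04).

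**Figure D3:**
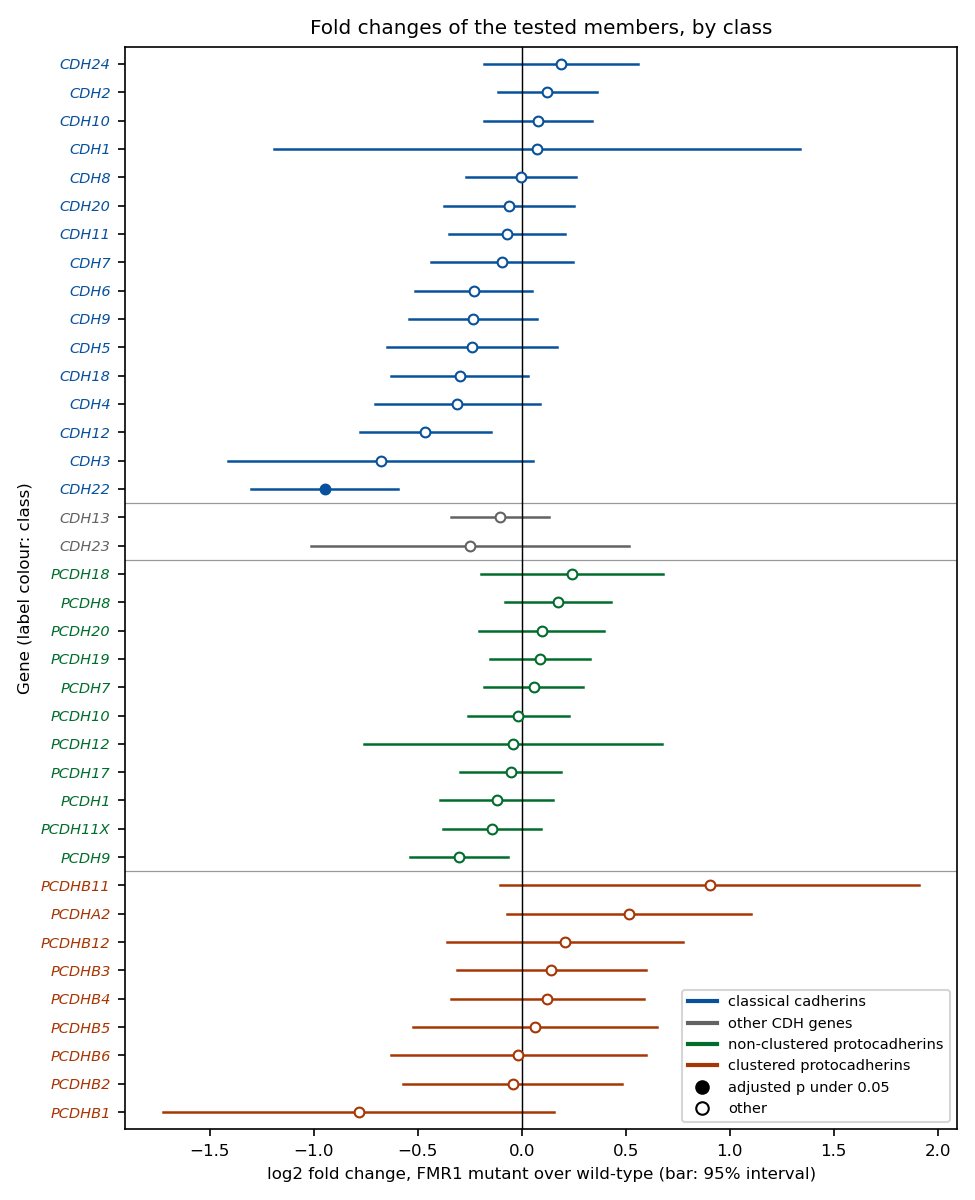
Log2 fold change, mutant over wild-type, with its 95% interval (horizontal axis) for the 38 tested members, coloured by class, with filled points for an adjusted p under 0.05. CDH22 at -0.95 is the filled point, and the intervals of PCDH9, PCDH11X and PCDH7 are among the narrowest while those of the beta genes are wide.

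Clustered protocadherins were counted at much lower numbers, and none of the 9 tested passed by edgeR, DESeq2 or limma-voom. None had an unadjusted p under 0.05 by edgeR. The symbols gave 9 beta genes, 1 alpha gene and 0 gamma genes, and rows known only by a LOC identifier were not assigned to the clusters. Of the 9 tested, 6 were positive and 3 negative, with a median log2 fold change of 0.12. Their SE had a median of 0.29, against 0.12 for the non-clustered protocadherins, so moderate differences were not detectable at this depth. Genes of these arrays resemble each other closely, and the sources used here do not say how reads that match several of them were counted, so each value is uncertain.

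PCDHA2, the alpha gene, had 64 and 47 counts in wild-type and 77 and 88 in mutant libraries. Its groups did not overlap, but the log2 fold change of 0.52 did not pass (SE 0.29, adjusted p = 0.455). PCDHB11 had the largest positive value among the 38 tested members (0.90, SE 0.50, adjusted p = 0.444), from 13 and 15 against 19 and 36 counts, and fell to 0.40 without mutant replicate 2. PCDHB1, the first gene of the beta array, went the other way, with 38 and 22 against 14 and 22 counts (-0.78, SE 0.46, adjusted p = 0.486). The beta gene with the most counts, PCDHB3, was counted 194 and 114 times in wild-type and 197 and 154 times in mutant libraries (0.14, 95% interval -0.31 to 0.60).

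The other beta genes also had wide intervals. PCDHB4 was counted 127, 101, 118 and 140 times (0.12), PCDHB2 102, 74, 87 and 90 times (-0.04) and PCDHB12 75, 59, 74 and 87 times (0.21), wild-type replicates first. PCDHB5 (0.06) and PCDHB6 (-0.02) had intervals of -0.53 to 0.65 and -0.63 to 0.60. PCDHB7, with 4 to 8 counts in a library, was not tested. Wild-type replicate 2 had the fewest counts of PCDHB2, PCDHB3, PCDHB4 and PCDHB12.

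Class sums were also compared between the groups. With 2 libraries per group separation is common, since 43.1% of single genes tested did not overlap. The share for sums of other gene sets was not taken. Type II cadherins summed to 549 and 528 CPM in wild-type and 466 and 495 CPM in mutant libraries, so both mutant libraries lay below both wild-type libraries. Delta-1 protocadherins did so too, at 841 and 870 against 745 and 830 CPM, as did all classical cadherins together, at 762 and 720 against 671 and 714 CPM. These sums include members already named for a low p, CDH22 and CDH12 in the cadherin sums and PCDH9 in the delta-1 sum. With CDH22 taken out the groups overlap for all classical cadherins and nearly touch for type II. With PCDH9 taken out they overlap for delta-1 protocadherins. The groups overlapped for type I cadherins, at 214 and 192 against 205 and 219 CPM, and for delta-2 protocadherins, at 469 and 507 against 489 and 514 CPM. They overlapped as well for all non-clustered protocadherins (1348 and 1428 against 1280 and 1392 CPM) and for clustered protocadherins (55.6 and 45.9 against 54.8 and 56.5 CPM). All 44 members together made up 0.239% and 0.240% of the wild-type counts and 0.219% and 0.238% of the mutant counts, with mutant replicate 1 the low one. No test was made between classes, since their members were chosen with results of these data known.

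**Figure D4:**
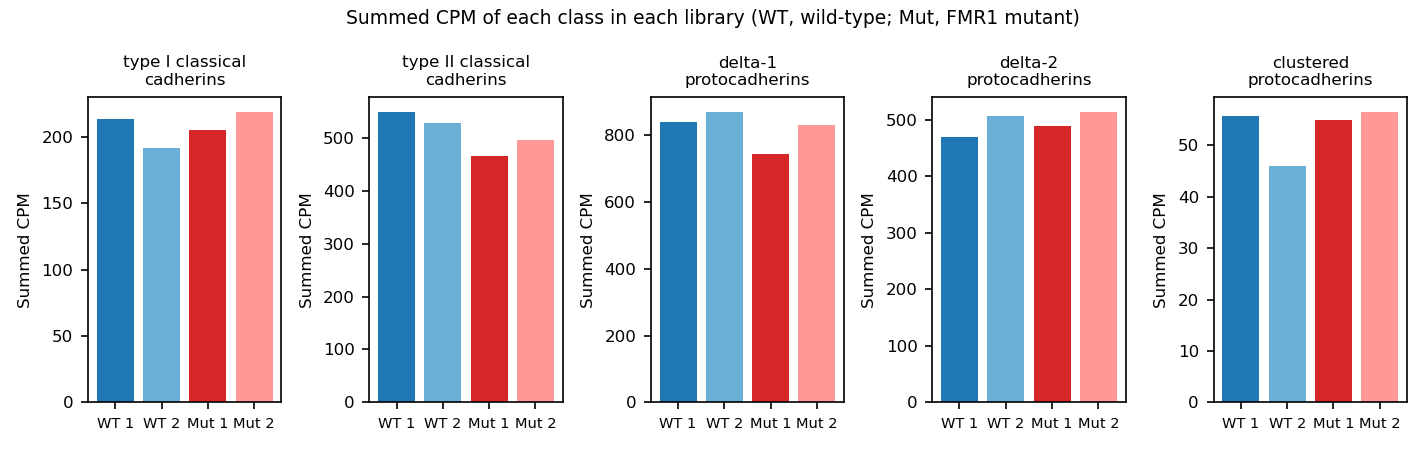
Summed CPM (vertical axes, from 0) of all members of 5 classes in each library. The mutant libraries lie below the wild-type libraries for type II cadherins (466 and 495 against 549 and 528 CPM) and delta-1 protocadherins (745 and 830 against 841 and 870 CPM) and overlap them in the other 3 classes shown. The type II sum includes CDH22 and the delta-1 sum PCDH9, and the separations rest largely on these genes. Of all single genes tested, 43.1% did not overlap.

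The median log2 fold changes were -0.16 for classical cadherins, -0.02 for non-clustered and 0.12 for clustered protocadherins. With 1 library left out they ran from -0.27 to -0.07, from -0.11 to 0.09 and from 0.10 to 0.24. The order of classical below clustered held in these 4 fits, while the median of non-clustered protocadherins changed sign. Of the 16 classical cadherins tested, 9 were negative and 3 positive in all 4 fits. Of the 9 clustered protocadherins, 5 were positive and 1 negative in all 4. Over all 38 members tested, 14 were negative and 11 positive in all 4. The 4 fits share libraries, and a gene whose groups do not overlap keeps its sign in them. Groups did not overlap for 43.1% of all genes tested, but genes with overlapping groups, such as CDH6 and CDH13, can keep their sign too. The share of all genes that kept a sign was not taken, so these counts have no baseline.

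**Figure D5:**
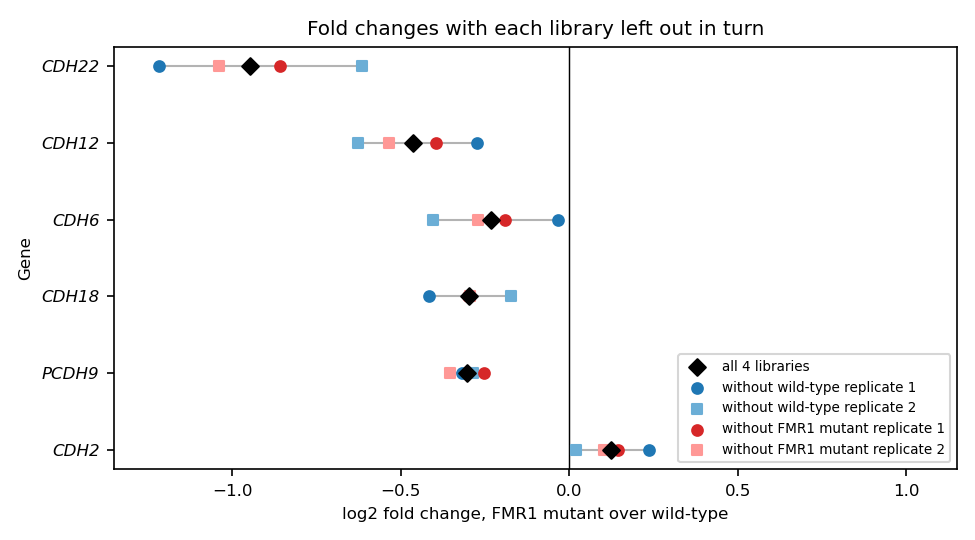
Log2 fold change, mutant over wild-type (horizontal axis), of 6 members with all 4 libraries (diamonds) and with each library left out (coloured points). CDH22 runs from -1.22 to -0.61, PCDH9 stays between -0.35 and -0.25, and CDH6 comes close to 0 without wild-type replicate 1.

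The genes of proteins that work with cadherins were read from lists, beside the 2.23% of all genes that were called and the 13.4% with an unadjusted p under 0.05. Among 9 catenins, which join classical cadherins to actin, none passed by edgeR, DESeq2 or limma-voom, and the median log2 fold change was -0.03. JUP, or plakoglobin, had the smallest p, at 39.8 and 43.9 CPM in wild-type and 57.7 and 55.1 CPM in mutant libraries (0.43, SE 0.14, adjusted p = 0.0918). CTNNB1 (-0.01), CTNNA2 (-0.03), CTNND2 (-0.18) and ARVCF (-0.10) were negative, CTNND1 (0.23, adjusted p = 0.409) and CTNNA1 (0.20, adjusted p = 0.514) positive, and none of these passed. CTNNA3 had few counts and the largest fold of the list (-0.93, SE 0.47, adjusted p = 0.383). Besides JUP, 1 catenin had an unadjusted p under 0.05, PKP4 (-0.30, adjusted p = 0.205).

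Among 9 actin and junction proteins linked to catenins, 1 fell and 0 rose (median -0.12). It was PLEKHA7, a protein of adherens junctions that binds p120-catenin, at 19.4 and 16.4 CPM in wild-type and 8.32 and 11.4 CPM in mutant libraries (-0.86, SE 0.20, adjusted p = 0.0157). Its groups did not overlap, but it did not pass by DESeq2 (adjusted p = 0.0966), without wild-type replicate 1 (0.0937) or without mutant replicate 1 (0.318). None of the 9 enzymes that cut or mature cadherins passed by edgeR, DESeq2 or limma-voom, and 0 had an unadjusted p under 0.05. All 9 were slightly negative (median -0.10), with NCSTN, a gamma-secretase subunit, nearest to the threshold (-0.17, adjusted p = 0.631).

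Of 16 other genes of the cadherin superfamily 15 were tested and none passed by edgeR, DESeq2 or limma-voom, with 11 negative and 4 positive (median -0.18). The 3 with an unadjusted p under 0.05 were all lower. They were CLSTN3 (-0.29, adjusted p = 0.194) and CLSTN1 (-0.23, adjusted p = 0.327), calsyntenins of synapses and axonal transport, and FAT1, a giant cadherin of radial glia (-0.34, adjusted p = 0.270). CLSTN3 was at 450 and 472 CPM in wild-type and 370 and 383 CPM in mutant libraries, so the groups were separate. Among 11 effectors of protocadherin tails none passed by edgeR, DESeq2 or limma-voom (median 0.04), and 1 had an unadjusted p under 0.05. It was WASF1, a subunit of the actin-regulating WAVE complex (0.24, adjusted p = 0.338). Among 11 regulators of the clustered protocadherin locus none passed by edgeR, DESeq2 or limma-voom, 0 had an unadjusted p under 0.05, and 9 were positive (median 0.09). RAD21, a subunit of the cohesin ring that brings enhancers to these promoters, was at 194 and 185 against 212 and 223 CPM (0.20, adjusted p = 0.478), and CTCF, which binds the promoters, was at 0.09 (adjusted p = 0.824).

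Markers of some other cell types moved between the groups as well. Of 8 astrocyte markers 2 fell, of 8 oligodendrocyte precursor markers 3 and of 8 microglial markers 3, and 0 rose in these lists, where 2.23% of all genes were called. In the precursor list SOX10, GPR17 and BCAS1 fell, while PDGFRA (-0.44, adjusted p = 0.0554) and CSPG4 (-0.13, adjusted p = 0.862) did not pass and VCAN was positive (0.14). In the microglial list C1QA, C1QB and C1QC had overlapping groups, and C1QC was positive (0.49). Of 7 newborn neuron markers tested 3 rose, and their sum was 3719 and 3187 CPM in wild-type and 4477 and 4406 CPM in mutant libraries. Astrocyte markers summed to 5286 and 5114 against 3789 and 4088 CPM and microglial markers to 167 and 178 against 131 and 88.4 CPM. None of these markers was at 0 in a library, and their part in the CDH22 difference was not tested. No marker passed in the endothelial and pericyte, meningeal and fibroblast, choroid plexus and ependymal, thalamic or striatal lists.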

How the data were processed

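Per the labels' protocols, poly(A) RNA of 4 brain samples was made into directional libraries, and reads were handled with Trimmomatic 0.38 and STAR 2.7.10a per the submitters' processing notes. The sources used here do not give the counting tool, strand setting, build or annotation. The values deposited by the authors are raw counts for each gene, not normalized, with 1 column per library. Columns were assigned to libraries by the names in the labels.

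Counts were tested in R 4.3.3 with edgeR 4.0.16 (filterByExpr at a minimum count of 10, TMM, quasi-likelihood test with robust = TRUE, no covariates, Benjamini-Hochberg adjustment over 16956 genes, threshold 0.05). The fit had 2 residual degrees of freedom for a gene, to which edgeR added a median of 31.6 prior degrees of freedom borrowed across genes. The p-values and intervals thus rest mainly on variance shared between genes. SE is the fold change divided by the root of F. On simulated counts of the same 16956 genes with 200 changed, it recovered 21.7% of changes of 0.5, 68.6% of 1 and 93.4% of 2 on the log2 scale, with 7 false among 127 calls, and made 0 calls where nothing changed. Libraries of a group differed by more than sampling noise (chi-square per degree of freedom 7.28 and 6.90), so none was treated as a repeat of another; this does not show separate animals. Alternatives were other scalings and filters, DESeq2 1.42.0, limma-voom (limma 3.58.1), robust = FALSE, a replicate block and each library left out. Gene order is from RefSeq's calJac240_pri, which held 43 of the 44 members by symbol.

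The members and lists were chosen with earlier results of these data known. The rule for named genes took FMR1, members past the threshold or with an unadjusted p under 0.05, per class the 3 with the most CPM and the 2 with the largest change, and per list those that passed or else the smallest p. Other genes are named to account for every member, or were chosen after their values were seen.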

Additional observations from a re-analysis of the deposited data

How the results depend on the processing

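CDH22 was called under every alternative except the fits without mutant replicate 1 or 2, and it was the single member called in each of the other fits but the one without wild-type replicate 2, which added CDH12. The number of members called was thus 0 to 2 with 1 library left out. Over all genes, 378 were called, 244 by DESeq2 (run on all rows), 633 without a low-count filter, and 163 to 562 with 1 library left out. The classical median moved from -0.16 to -0.23 by DESeq2, -0.23 without the filter and -0.23 at a mean of at least 1 CPM. In each of these fits that median was taken over another set of members, and CDH6 stayed at -0.23. With 1 library left out the classical median ran from -0.27 to -0.067, the non-clustered median from -0.11 to 0.087 and the clustered median from 0.10 to 0.24. The cause of the shifts with 1 library left out was not tested. With the replicate number as a block, 493 genes and 1 member were called and CDH22 was at -0.92. Deviations of same-numbered libraries correlated at 0.03, so no pairing by number was seen over all genes. With 2 libraries per group this cannot exclude a pairing that touches few genes.

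CDH8, near 0, turned positive under RLE scaling (0.000031), upper quartile scaling (0.0012), DESeq2 (0.000077), limma-voom (0.0048) and the replicate block (0.0052). With 1 library left out, uncalled values that changed sign ran from -0.35 to 0.40 for CDH1, -0.27 to 0.11 for CDH11, -0.47 to 0.019 for CDH23, -0.30 to 0.086 for CDH7, -0.16 to 0.17 for CDH8, -0.022 to 0.53 for FMR1, -0.32 to 0.11 for PCDH1, -0.13 to 0.087 for PCDH10, -0.13 to 0.048 for PCDH12, -0.11 to 0.33 for PCDH20, -0.032 to 0.15 for PCDH7, -0.21 to 0.14 for PCDHB2, -0.14 to 0.51 for PCDHB3, -0.19 to 0.18 for PCDHB6, -0.11 to 0.096 for CTNNB1, -0.12 to 0.046 for CTNNA2 and -0.21 to 0.011 for ARVCF. With 1 library in a group, that library is assumed to vary like the others. The low counts of clustered protocadherins limit what could be detected there.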
